A study of Mus musculus with 15 samples.

Results

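Ccrl2, Cmklr1, Ptafr and Gpr183 are 4 cell-surface receptors that sense chemoattractant proteins or lipid mediators, and they were followed in microglia after a controlled cortical impact (CCI). They were chosen by name, as 4 of the 547 endogenous genes on an nCounter panel, a method that counts color-coded probes bound to single mRNA molecules without amplification. With the scaling used here, each of the 4 had its own set of calls against sham after injury. At 2 days post-injury (dpi) Cmklr1, Ptafr and Gpr183 were lower than in sham mice, with log2 fold changes of -0.52 to -0.85, and Ccrl2 was not called. The calls of Ccrl2, Cmklr1 and Ptafr at that time changed with the scaling of the samples, and that of Gpr183 was lost with 1 of the scalings tried. At 14 dpi Ccrl2 was 2.43-fold of sham and Ptafr was also higher, whereas Gpr183 was lower. This call of Ptafr was fragile, as it was lost with some scalings and in 6 of 15 fits that each left out 1 sample. At 60 dpi Gpr183 was called lower than sham, and the 3 others were not called.

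The samples were total RNA of sorted brain cells of male C57BL6J mice. The sham group held 4 samples, and the groups with CCI over the parieto-temporal cortex held 4 (2 dpi), 4 (14 dpi) and 3 (60 dpi). Cells were sorted as CD11b high and CD45 low to intermediate, a gate that holds microglia and may hold other myeloid cells with little CD45. By the study's methods the sham mice were taken at 2 days, so the mice at 14 and 60 dpi had no sham of the same time after surgery, and these groups were not randomized. The mice carried no transgene, and the methods describe no drug treatment beyond anesthesia. The labels do not say whether a sample is 1 animal, so the p-values cover only the spread from sample to sample, which may be partly technical. All sham, 2 dpi and 14 dpi samples were counted in 1 run, with lanes filled group by group, and all 60 dpi samples in another, so run and time cannot be told apart at 60 dpi. Since RNA was taken from sorted cells in bulk, fewer cells of a type and less RNA per cell cannot be told apart either.

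Endogenous counts summed to 66905 to 280528 per sample. Background, the mean plus 2 SD of the 8 negative controls of a sample, lay at 57.1 to 67.7 counts in the run of the 60 dpi samples and at 25.0 to 34.0 counts in the run of the others. The 4 receptors were above it in 15 of 15 samples. Their lowest counts were 8.64 times the limit for Ccrl2, 6.4 times for Gpr183, 4.7 times for Cmklr1 and 2.94 times for Ptafr. Of 10 genes listed as markers of homeostatic microglia, among them Csf1r, Cx3cr1, Trem2 and C1qa, 10 were above background in every sample. Of 16 listed T cell genes 9 were above it in none, among them Cd3e, Cd8a and Lck, but Cd247, Cd28 and Il7r were above it in 15 samples and Cd3d in 14, and Cd3d was called higher at 60 dpi than in sham mice (log2 fold change 1.94, edgeR adjusted p = 0.000201). Of 10 B cell genes 6 were above it in none, among them Cd79a and Ms4a1, whereas Blnk and Btk were above it in 15 samples, Cd22 in 14 and Cd79b in 7. Values below are normalized counts, which are raw counts scaled by each sample's positive controls and housekeeping genes, and a difference was called when the p from edgeR, adjusted over 359 tested genes, was under 0.05.

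The 4 receptors belong to the rhodopsin-like family of 7-transmembrane receptors. Cmklr1 is the signaling receptor for chemerin, a chemoattractant protein that draws macrophages, dendritic cells and natural killer cells. Ccrl2 is an atypical receptor that binds chemerin and presents it to neighboring cells without G protein signaling of its own. Ptafr is the receptor for platelet-activating factor, a phospholipid released by activated leukocytes and injured tissue. Gpr183, also called EBI2, senses oxysterols, oxidized forms of cholesterol that position B cells, T cells and dendritic cells in lymphoid tissue. The chemerin gene Rarres2 and the oxysterol enzymes Ch25h, Cyp7b1 and Hsd3b7 were not found on the panel by these symbols. They were therefore not analysed here.

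The stretches of 250 bases upstream of each gene's start are shown because short motifs of immune transcription factors can be read in them. They are RefSeq promoter windows of mouse build GRCm38.p6, matched by symbol for 4 of 4 genes and written 5′ to 3′ on the strand of the gene. Capitals mark matches on either strand to GGGANNNNCC, a form of the site bound by NF-kappaB, or to GAGGAA, a form of the site bound by PU.1. Ccrl2 has 3 windows listed, of which the one at the 5′ end of its gene record is shown.
Ccrl2, chr9:111057519-111057768, minus strand: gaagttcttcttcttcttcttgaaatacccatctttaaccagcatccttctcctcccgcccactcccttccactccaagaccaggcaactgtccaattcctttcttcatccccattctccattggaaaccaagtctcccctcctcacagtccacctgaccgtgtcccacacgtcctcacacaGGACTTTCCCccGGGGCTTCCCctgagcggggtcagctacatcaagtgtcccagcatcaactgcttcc
Cmklr1, chr5:113643604-113643853, minus strand: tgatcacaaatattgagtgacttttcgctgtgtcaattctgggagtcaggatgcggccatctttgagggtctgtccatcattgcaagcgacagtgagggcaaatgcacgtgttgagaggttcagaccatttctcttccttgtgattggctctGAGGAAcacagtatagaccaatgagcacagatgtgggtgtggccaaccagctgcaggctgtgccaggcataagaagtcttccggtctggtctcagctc
Ptafr, chr4:132563817-132564066, plus strand: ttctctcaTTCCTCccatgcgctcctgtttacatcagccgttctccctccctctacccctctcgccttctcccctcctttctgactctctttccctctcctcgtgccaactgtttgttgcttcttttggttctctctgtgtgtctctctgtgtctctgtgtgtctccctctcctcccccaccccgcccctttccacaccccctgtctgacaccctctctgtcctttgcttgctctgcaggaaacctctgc
Gpr183, chr14:121965194-121965443, minus strand: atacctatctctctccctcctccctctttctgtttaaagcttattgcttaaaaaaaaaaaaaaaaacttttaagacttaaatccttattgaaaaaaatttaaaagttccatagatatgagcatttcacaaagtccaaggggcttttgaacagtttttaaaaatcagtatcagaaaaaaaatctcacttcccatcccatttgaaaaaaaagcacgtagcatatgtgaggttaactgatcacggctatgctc

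The Ccrl2 window held 2 matches to GGGANNNNCC, which start at 68 and 56 bases before the gene's start and read GGACTTTCCC and GGGGCTTCCC on this strand. The other 3 windows held none. Of 32536 distinct windows of the same length in the table, 17.7% held at least 1 match. GAGGAA was found in the Cmklr1 window, starting 98 bases before the gene's start, and in the Ptafr window as its reverse complement TTCCTC, starting 242 bases before it. It was present in 23.4% of all windows. Neither TGANTCA, an AP-1 type motif in 6.73% of windows, nor GAAANNGAAA, an interferon-response type motif in 2.98%, was found in any of the 4. The 4 searches covered both strands, and no match overlapped another. A match describes letters and is not evidence of binding, and a link of these motifs to the counts was not tested.

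Ccrl2, the chemerin-presenting receptor, had normalized counts of 1070, 1085, 898 and 678 at 2 dpi, against 666, 962, 862 and 715 in sham mice. The ranges overlapped, and the mean was 116% of sham. At 14 dpi the counts were 1388, 2285, 2169 and 1948, and at 60 dpi they were 1011, 646 and 521. Each sample at 14 dpi lay above each of the 11 other samples, as it did for 24 genes, or 6.69% of those tested.

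The mean of Ccrl2 was 801.2 ± 135.9 in sham mice (SD, n = 4), 932.8 ± 189.7 at 2 dpi (SD, n = 4), 1948 ± 398.3 at 14 dpi (SD, n = 4) and 726.1 ± 254.9 at 60 dpi (SD, n = 3). The log2 fold change of 14 dpi against sham was 1.28 ± 0.22 (SE), with a 95% interval of 0.82 to 1.74 and an adjusted p of 0.000279 in edgeR. It was the 28th highest of 359. Against 2 dpi, Ccrl2 at 14 dpi was higher by 1.06 ± 0.22 log2 units (edgeR adjusted p = 0.00087), and at 60 dpi it was 1.42 log2 units lower than at 14 dpi (log2 fold change -1.42 ± 0.24, edgeR adjusted p = 0.00014). The differences of 2 dpi and of 60 dpi from sham were not called, with intervals of -0.24 to 0.67 and -0.63 to 0.35. At 2 dpi the difference from sham depended on the scaling. With TMM factors, which equalize the bulk of the tested genes, it was 0.47 (edgeR adjusted p = 0.0443), and with the size factors of DESeq2 it was 0.50 (DESeq2 adjusted p = 0.0283).

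Of 7 genes listed as dendritic cell markers, 4 were tested and 2, Cd83 and Itgax, were called higher at 14 dpi, as Ccrl2 was. Of all tested genes 21.4% were called higher at this time. The summed count of the 7 was 3531 to 6292 at 14 dpi, against 1559 to 2453 in sham mice. Cd83, which activated microglia also express, made up most of this sum. The log2 fold changes against sham were 1.42 for Cd83 (edgeR adjusted p = 0.000134) and 2.76 for Itgax (edgeR adjusted p = 7.73e-07). Irf4, at 0.53, and Batf3, at -0.54, were not called (edgeR adjusted p = 0.232 and 0.0952). Xcr1 and Cd209g of the same list were above background in no sample, and Ccr7 in 2 samples. The sum of 7 neutrophil genes was 1378 to 2078 at 14 dpi, against 1166 to 9118 in sham mice, and that of 8 monocyte genes was 690.4 to 1119, against 563.6 to 799.9. The part of these cells in the Ccrl2 counts was not tested.

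**Figure D1:**
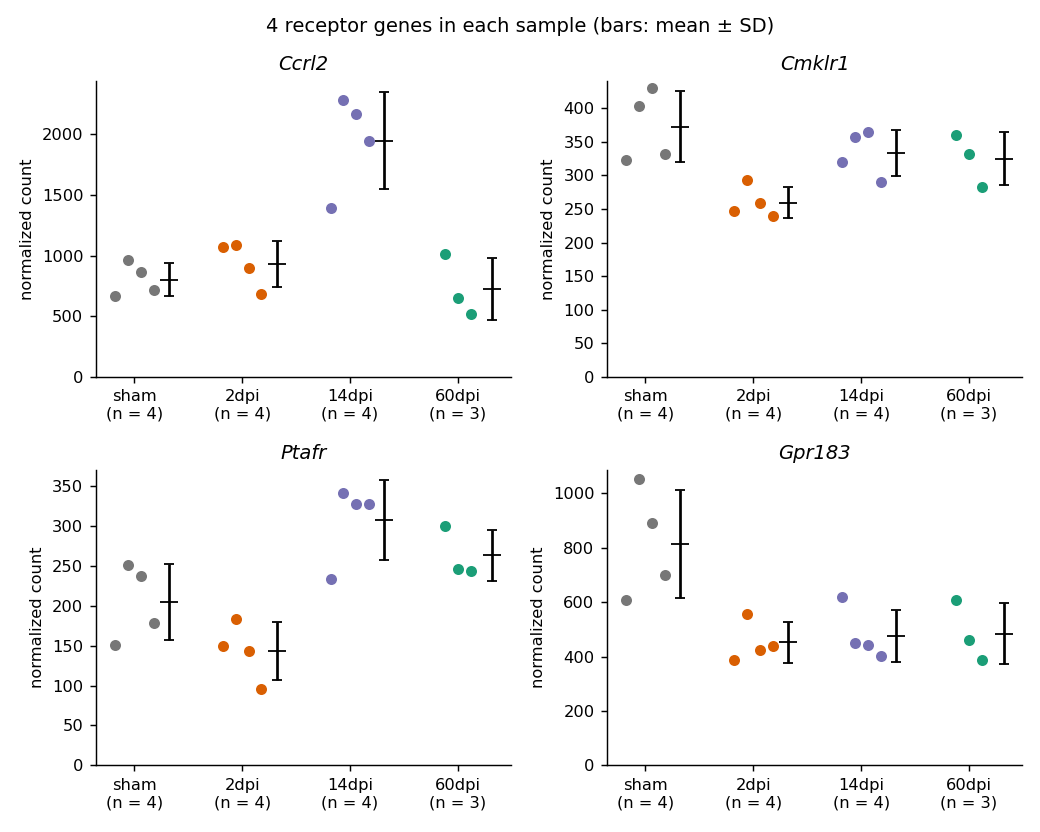
Normalized counts of Ccrl2, Cmklr1, Ptafr and Gpr183 in each sample, by group, with the mean ± SD beside the points (n = 4 in sham, 2dpi and 14dpi, n = 3 in 60dpi). Ccrl2 stood at 1388 to 2285 at 14 dpi, above the 11 other samples, and Gpr183 stood at 385.6 to 557.1 at 2 dpi, against 609 to 1052 in sham mice.

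Cmklr1, the chemerin receptor that signals, had normalized counts of 246, 293, 259 and 240 at 2 dpi, against 323, 404, 431 and 332 in sham mice. Each sample at 2 dpi was below each sham sample. Counts were 321, 358, 365 and 291 at 14 dpi and 361, 332 and 283 at 60 dpi, both overlapping the sham range.

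The mean of Cmklr1 was 372.6 ± 53.08 in sham mice (SD, n = 4), 259.6 ± 23.47 at 2 dpi (SD, n = 4), 333.4 ± 34.5 at 14 dpi (SD, n = 4) and 325.3 ± 39.25 at 60 dpi (SD, n = 3). The log2 fold change of 2 dpi against sham was -0.52 ± 0.14 (SE), with a 95% interval of -0.82 to -0.22 and an edgeR adjusted p of 0.0105. This was a time at which the median over all tested genes was -0.30. With TMM factors, where that median was -0.04, the change of Cmklr1 was -0.27 and was not called (edgeR adjusted p = 0.125). At 14 and 60 dpi the differences from sham were -0.16 ± 0.14 and -0.20 ± 0.16 log2 units (SE) and were not called, with intervals of -0.46 to 0.14 and -0.52 to 0.13. With TMM factors the change at 14 dpi was -0.34 and was called (edgeR adjusted p = 0.0377). That at 60 dpi was then -0.33 and was not called (edgeR adjusted p = 0.054). The increase of 14 dpi over 2 dpi, 0.36 ± 0.14 log2 units, fell just short of the threshold (edgeR adjusted p = 0.0503). In this comparison the median over all tested genes was 0.43. With TMM factors the difference turned to -0.08 (edgeR adjusted p = 0.723), so the increase depended on the scaling.

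Ptafr, the receptor for platelet-activating factor, had normalized counts of 150, 184, 143 and 96 at 2 dpi, against 151, 251, 237 and 178 in sham mice. Counts were 233, 341, 327 and 328 at 14 dpi and 300, 246 and 243 at 60 dpi. Of the injured groups, 2 dpi lay entirely below both 14 and 60 dpi, while each injured group overlapped the sham range.

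The mean of Ptafr was 204.3 ± 47.75 in sham mice (SD, n = 4), 143.2 ± 36.1 at 2 dpi (SD, n = 4), 307.3 ± 49.94 at 14 dpi (SD, n = 4) and 263 ± 31.89 at 60 dpi (SD, n = 3). The largest differences of this gene were those of 14 and 60 dpi from 2 dpi. Against 2 dpi, the log2 fold change was 1.10 ± 0.20 (SE) at 14 dpi (edgeR adjusted p = 0.000427). At 60 against 2 dpi it was 0.88 ± 0.21 (edgeR adjusted p = 0.00226), and there time and run cannot be told apart. The medians over all tested genes were 0.43 and 0.49 in these comparisons, so much of the panel rose too. With TMM factors those medians were -0.02 and 0.09. The changes of Ptafr were then 0.66 (edgeR adjusted p = 0.00349) and 0.50 (edgeR adjusted p = 0.0143). The differences from sham were smaller, at -0.52 ± 0.20 for 2 dpi (edgeR adjusted p = 0.0491) and 0.58 ± 0.20 for 14 dpi (edgeR adjusted p = 0.0385). Both calls were fragile. At 2 dpi the change was -0.27 with TMM factors (edgeR adjusted p = 0.183) and -0.25 with the size factors of DESeq2 (DESeq2 adjusted p = 0.31), and at 14 dpi it was 0.39 with DESeq2 (DESeq2 adjusted p = 0.058). The call at 2 dpi was lost in 11 of 15 fits that each left out 1 sample, with adjusted p up to 0.15, and that at 14 dpi in 6 of 15, with adjusted p up to 0.106. At 60 dpi the difference from sham was 0.36 ± 0.21 and was not called, with an interval of -0.08 to 0.80.

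Gpr183, the oxysterol receptor, had normalized counts of 386, 557, 424 and 440 at 2 dpi, against 609, 1052, 892 and 699 in sham mice. Counts were 617, 448, 441 and 400 at 14 dpi and 606, 459 and 385 at 60 dpi. The samples at 2 and 60 dpi were all below the sham samples, at 60 dpi narrowly, with 606 against 609. At 14 dpi 1 sample, replicate 1 at 617, was above the lowest sham sample at 609.

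The mean of Gpr183 was 813.1 ± 198.4 in sham mice (SD, n = 4), 451.6 ± 73.94 at 2 dpi (SD, n = 4), 476.7 ± 95.83 at 14 dpi (SD, n = 4) and 483.4 ± 112.3 at 60 dpi (SD, n = 3). The injured groups stood at 55.5%, 58.6% and 59.5% of sham in order of time. The log2 fold changes against sham were -0.85 ± 0.20 at 2 dpi (edgeR adjusted p = 0.00385), -0.77 ± 0.20 at 14 dpi (edgeR adjusted p = 0.00727) and -0.75 ± 0.22 at 60 dpi (edgeR adjusted p = 0.0107). At 14 dpi this was the 10th lowest value of 359. Among the injured groups none of the 3 differences was called. Their intervals were -0.33 to 0.49 for 14 against 2 dpi, -0.43 to 0.46 for 60 against 14 dpi and -0.35 to 0.54 for 60 against 2 dpi. The medians over all tested genes at 14 and 60 against 2 dpi were 0.43 and 0.49. With TMM factors both of these differences of Gpr183 turned negative, so the similar levels of the injured groups depended on the scaling. Without replicate 3 at 60 dpi, the change of 60 dpi against sham was -0.61 and was no longer called (edgeR adjusted p = 0.0635).

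The calls among the 4 genes can be set beside those over the 359 tested genes. In 2 dpi against sham, 3 of the 4 receptors were called lower, where 28.1% of tested genes were called lower and 24.2% had all injured samples below all sham samples. In 14 dpi against sham, 2 were called higher and 1 lower, where 21.4% of tested genes were called higher and 4.18% lower. Ccrl2 had no overlap of samples there, as had 16.7% of tested genes. In 60 dpi against sham, 1 was called lower with no overlap, where 11.1% were called lower and 11.1% had no overlap. In 14 against 2 dpi, 2 were called higher with no overlap, where 39.6% were called higher and 35.7% had no overlap. In 60 against 14 dpi, 1 was called lower with no overlap, where the shares were 22.3% and 21.2%. In 60 against 2 dpi, 1 was called higher with no overlap, where the shares were 46.2% and 49.9%. In all, 11 of 24 comparisons were called. With the scaling used here, falls at 2 dpi and rises between injured times were thus common on the panel. A fall at 14 dpi, as for Gpr183, was called for few genes. These shares depended on the scaling. With TMM factors 65 genes were called lower at 14 dpi, in place of 15. At 2 dpi 43 were called lower in place of 101, and at 14 against 2 dpi 44 were called higher in place of 142.

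**Figure D2:**
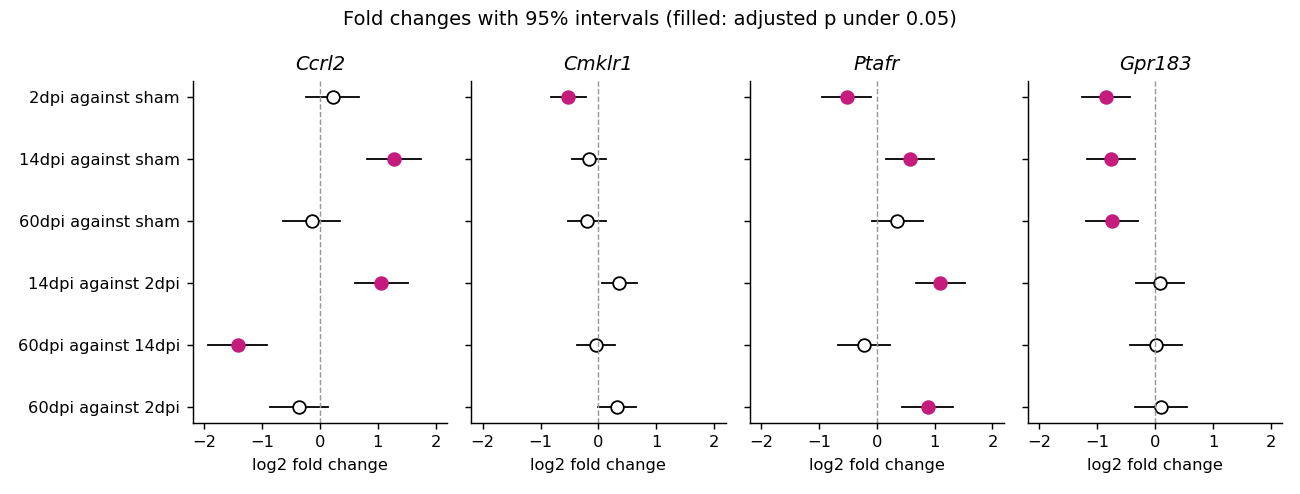
Log2 fold changes of the 4 genes in 6 comparisons, as points with 95% intervals from the edgeR fit, filled where the adjusted p was under 0.05. Gpr183 lay below 0 against sham at each time (-0.85, -0.77 and -0.75), whereas Ccrl2 was filled against sham at 14 dpi (1.28).

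Markers of cells other than resting microglia differed between the groups beside these results. At 2 dpi the summed count of the 10 homeostatic microglia genes was 22430 to 29370, against 30710 to 41680 in sham mice, and 8 of the 10 were called lower. The summed count of 8 monocyte genes was 1300 to 1674 at 2 dpi, against 563.6 to 799.9, with 5 of the 8 called higher, among them Fn1 and Tgfbi. Of all tested genes 28.1% were called lower and 7.24% higher at 2 dpi. At 60 dpi the monocyte sum was 1068 to 1657, against 563.6 to 799.9 in sham mice. Of the 8 monocyte genes 7 were called higher, where 25.3% of all tested genes were. The sum of 7 neutrophil genes was 9399 to 39930 at 60 dpi, against 1166 to 9118. Of the 5 tested, 1 was called higher, where 25.3% of all tested genes were. It was Ltf, which was above background in 3 of 15 samples. S100a8, S100a9 and Camp were not called (edgeR adjusted p = 0.0676, 0.121 and 0.141), nor was Csf3r, at -0.43. The sum of the endothelial and pericyte genes was 468.8 to 1210 at 60 dpi, against 222 to 347, and 3 of the 4 tested were called higher. Cxcr2 of the neutrophil list was above background in 1 sample and Cxcr1 in 2. The part of these cells in the lower counts of Cmklr1, Ptafr and Gpr183 was not tested.

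Ratios of 2 receptors within a sample do not depend on how samples are scaled, so they show whether the receptors moved together. They are given as a description, with no test. Ccrl2 over Cmklr1, the presenting over the signaling chemerin receptor, was 2 to 2.38 in sham mice, 2.83 to 4.34 at 2 dpi, 4.33 to 6.7 at 14 dpi and 1.84 to 2.8 at 60 dpi. All samples at 2 and 14 dpi were above all sham samples, and those at 60 dpi lay on both sides of the sham range. On the log2 scale the means differed from sham by 0.72 at 2 dpi, 1.43 at 14 dpi and 0.01 at 60 dpi. These are ratios of counts of different probes, so they can be compared between groups and do not give the ratio of the mRNAs. A ratio removes the scaling of a sample but not a difference of a probe between runs. Time and run therefore cannot be told apart in the ratios at 60 dpi.

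Ptafr over Cmklr1 differed from sham by -0.01 log2 units at 2 dpi, 0.76 at 14 dpi and 0.58 at 60 dpi. It was 0.401 to 0.628 at 2 dpi, against 0.467 to 0.622 in sham mice, so at that time the ranges overlapped. At 14 and 60 dpi it was 0.727 to 1.13 and 0.741 to 0.858, above all sham samples. Ccrl2 over Gpr183 was 0.914 to 1.09 in sham mice, 1.54 to 2.78 at 2 dpi, 2.25 to 5.1 at 14 dpi and 1.35 to 1.67 at 60 dpi. Its samples lay above all sham samples at each of the 3 times, by 1.04, 2.03 and 0.56 log2 units on average. Cmklr1 over Gpr183 was 0.525 to 0.639 at 2 dpi and 0.52 to 0.827 at 14 dpi, both overlapping the 0.384 to 0.531 of sham mice. At 60 dpi it was 0.595 to 0.734, above all sham samples. Gpr183 was thus lower relative to Cmklr1 in 3 of 3 samples at 60 dpi.

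**Figure D3:**
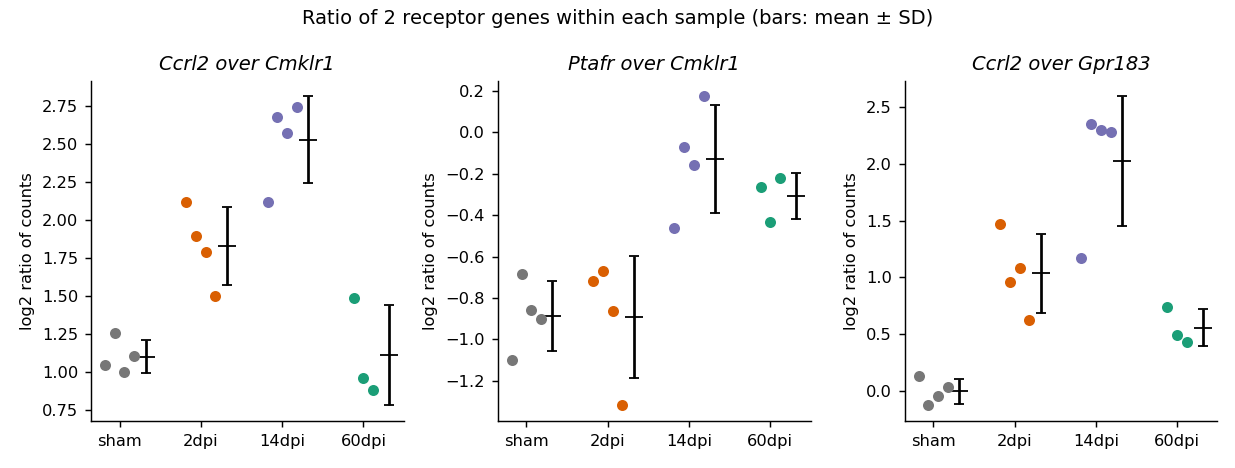
Log2 ratio of the counts of 2 receptor genes in the same sample, for 3 pairs, with each sample as a point and the mean ± SD beside it (n = 4 in sham, 2dpi and 14dpi, n = 3 in 60dpi). Ccrl2 over Gpr183 was 0.43 or more in the injured samples and 0.13 or less in sham mice.

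Replicate 1 at 14 dpi stood apart from the 3 other samples of its group in 3 of the receptors. It had 1388 counts of Ccrl2, where the others had 1948 to 2285, 233 of Ptafr, where they had 327 to 341, and 617 of Gpr183, where they had 400 to 448. For Cmklr1 it was within their range, at 321. Its sum of dendritic cell genes, 3531, was the lowest of the group and its sum of monocyte genes, 1119, the highest. Without this sample the log2 fold changes of 14 dpi against sham were 1.41 for Ccrl2 (edgeR adjusted p = 4.15e-05), 0.70 for Ptafr (edgeR adjusted p = 0.0111) and -0.92 for Gpr183 (edgeR adjusted p = 0.00163).

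Genes with courses most like each receptor were found by the root-mean-square (RMS) difference of log2 counts, each gene centered on its own mean over the 15 samples. A low value means that 2 genes moved alike from sample to sample. All genes share the libraries and scaling factors, so this is a description. For Ccrl2 the nearest were Ccl4 (0.159), Tnfaip3 (0.202) and Ccl3 (0.203), where the median over all tested genes was 0.727. Ccl3 and Ccl4 are chemokines that draw leukocytes, and Tnfaip3 encodes A20, an inhibitor of NF-kappaB signaling. Ccl4 averaged 3223 ± 381 in sham mice (SD, n = 4), 3592 ± 744.2 at 2 dpi (SD, n = 4), 7268 ± 2159 at 14 dpi (SD, n = 4) and 2853 ± 1222 at 60 dpi (SD, n = 3). Like Ccrl2, these 3 genes were called higher at 14 dpi against sham and lower at 60 dpi against 14 dpi, and at 2 and 60 dpi they had no called difference from sham.

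For Cmklr1 the nearest genes were Cd81 (RMS 0.102), a tetraspanin, Csf1r (0.138), the receptor for CSF1 and IL-34 on which microglia depend, and Ifngr2 (0.148), a chain of the interferon gamma receptor. The median over all tested genes was 0.451. Csf1r averaged 5468 ± 895.3 at 2 dpi (SD, n = 4) and 8852 ± 1778 in sham mice (SD, n = 4). For Ptafr they were Irak2 (0.208) and Traf6 (0.219), both of Toll-like and interleukin 1 receptor signaling, and Blnk (0.224), an adaptor of B cell receptor signaling. The median was 0.550. Blnk is in the B cell list. Of the 4 tested genes of that list, Cd22 was called higher at 14 dpi against sham (1.58, edgeR adjusted p = 0.000403), as Ptafr was. Of all tested genes 21.4% were called higher there. Blnk at 0.31, Cd79b at -0.06 and Btk at -0.25 were not called. Cd79a and Ms4a1 were above background in no sample. The part of B cells in the Ptafr counts was not tested.

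For Gpr183 the nearest were Lair1 (0.135), an inhibitory receptor for collagen, Casp8 (0.189), an initiator caspase, and Card9 (0.196), an adaptor of C-type lectin receptor signaling. The median was 0.611, and Cmklr1, the nearest of the other receptors, stood at 0.303. Lair1 averaged 579.9 ± 122.1 in sham mice, 319 ± 38.73 at 2 dpi, 377.4 ± 56.9 at 14 dpi (SD, n = 4 each) and 400.4 ± 76.69 at 60 dpi (SD, n = 3). Like Gpr183 it was called lower than sham at each of the 3 times, with log2 fold changes of -0.86, -0.62 and -0.53. Casp8 and Card9 were called lower at 2 and 14 dpi but not at 60 dpi (edgeR adjusted p = 0.108 and 0.217).

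**Figure D4:**
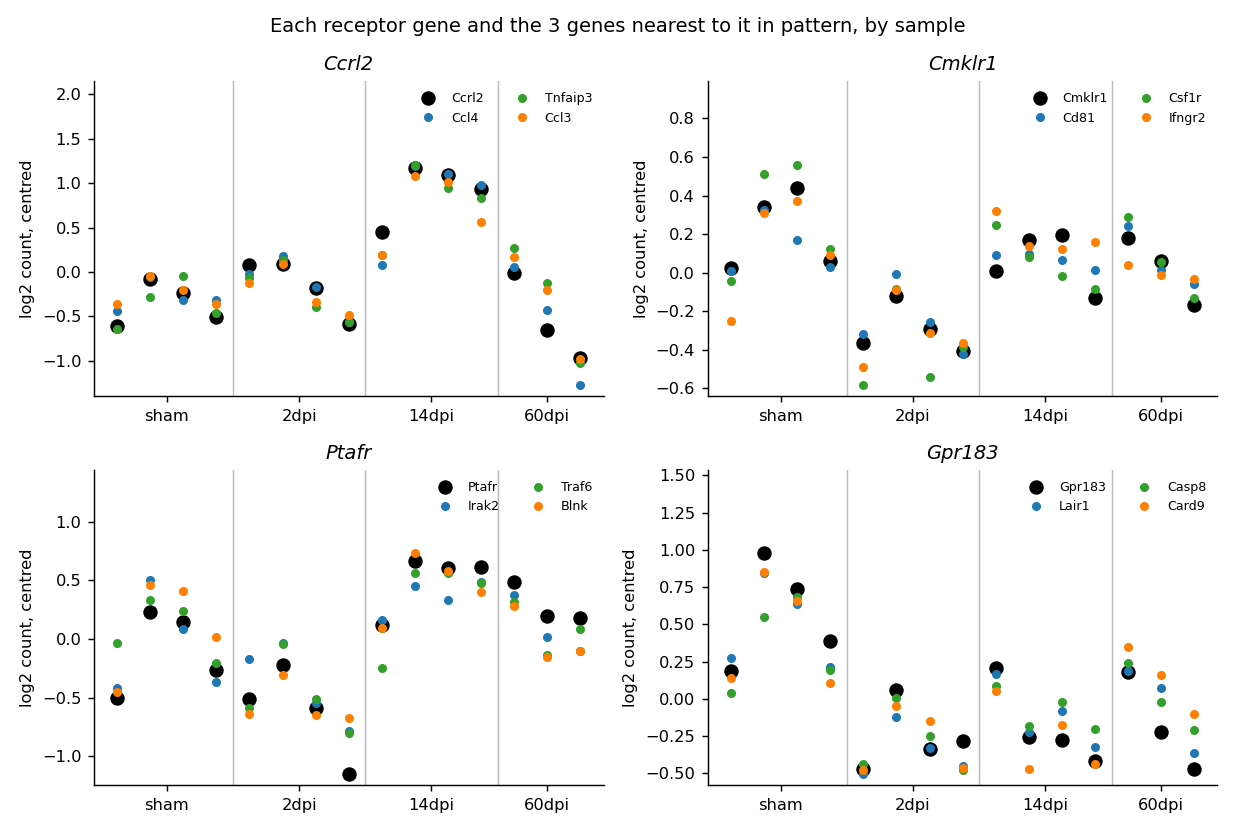
Log2 normalized counts centered on each gene's mean, for each receptor (large black points) and the 3 genes nearest to it (small colored points), by sample in the order of replicates within sham, 2dpi, 14dpi and 60dpi. The points of Ccrl2, Ccl4, Tnfaip3 and Ccl3 lay close together in most samples, with RMS differences of 0.159 to 0.203.

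Other receptors for chemokines and chemoattractants were on the panel. Of 40 listed, 23 were on it and 9 were tested. At 2 dpi Cxcr4 was called higher than sham and Cx3cr1, the fractalkine receptor, lower. Over the 9, log2 fold changes had a median of -0.41, where all tested genes had -0.30.

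Cxcr4, the receptor for Cxcl12, was called higher at each time, with log2 fold changes of 1.24 at 2 dpi, 2.40 at 14 dpi and 1.81 at 60 dpi. Plaur, the urokinase receptor, was called higher at 14 dpi (1.68, edgeR adjusted p = 0.00123) and at 60 dpi (1.64, edgeR adjusted p = 0.0015). At 60 dpi 5 of the 9 were called higher than sham, with Ccr2, Ccr9 and Ltb4r1 beside Cxcr4 and Plaur, and Cx3cr1 was called lower. Of all tested genes 25.3% were called higher at this time. The median was 1.05 at that time, where that of all tested genes was 0.12. In sham mice Ccr2 averaged 29.7 normalized counts, with 2 of 4 samples above background, and Ccr9 averaged 52.8. Background counts were higher in the run of the 60 dpi samples, and run and time cannot be told apart there. Of the 4 receptors described here none was called higher than sham at 60 dpi, though the interval of Ptafr reached 0.80.

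Of the lipid mediator list 7 genes were on the panel and 3 were tested. Ptgs2, the inducible cyclooxygenase, was higher at 2 dpi (1.31 ± 0.25, edgeR adjusted p = 0.0016) and at 14 dpi (1.60 ± 0.25, edgeR adjusted p = 0.000126), and at 60 dpi it was lower than at 14 dpi (-1.80 ± 0.28, edgeR adjusted p = 6.08e-05). Ptger4, a receptor for prostaglandin E2, was higher at 14 dpi (1.0 ± 0.26, edgeR adjusted p = 0.00794) and at 60 dpi (0.80 ± 0.28, edgeR adjusted p = 0.0309). Ltb4r1, a receptor for leukotriene B4, was higher at 60 dpi (1.37 ± 0.32, edgeR adjusted p = 0.00236). With TMM factors the calls of these 3 genes against sham kept their direction and their side of the threshold.

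**Figure D5:**
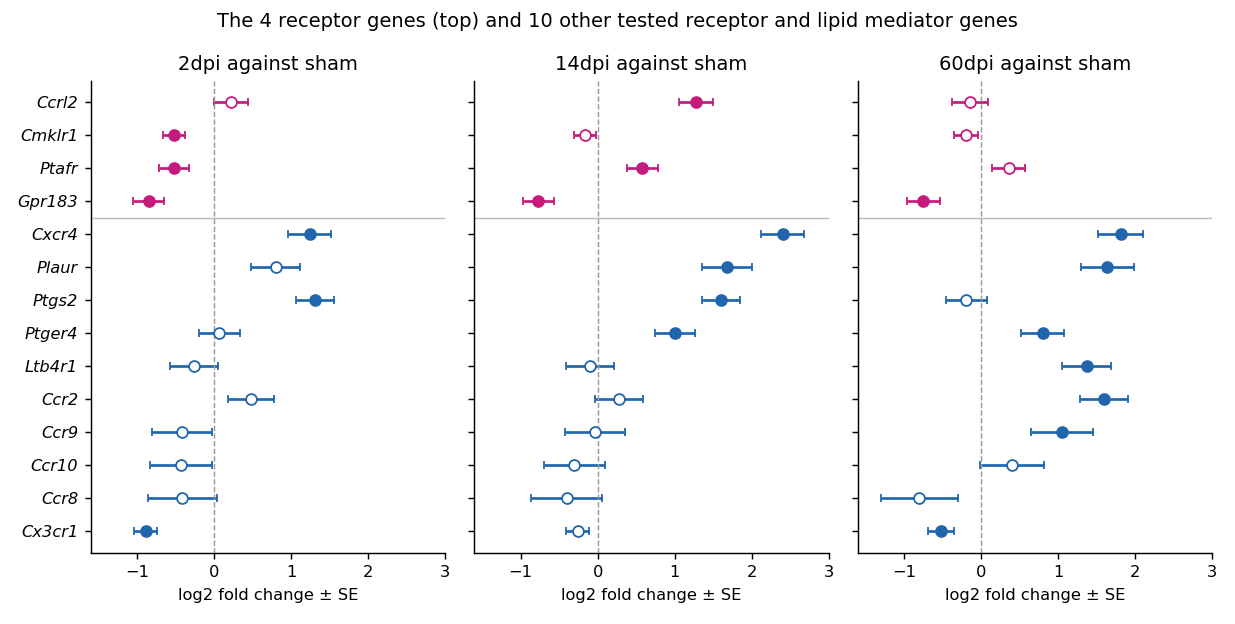
Log2 fold changes ± SE against sham at 2, 14 and 60 dpi for the 4 receptor genes (top, magenta) and 10 other tested genes of the receptor and lipid mediator lists (blue), filled where the edgeR adjusted p was under 0.05. Gpr183 stood below 0 at 14 dpi (-0.77), and Cxcr4 stood highest at that time (2.40).

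The 2 further lists hold chemokines, some of which share target cells with these receptors, and cytokines with feedback genes of NF-kappaB. Of 18 tested chemokine genes, 4 were called higher at 14 dpi and none lower, a share near the 21.4% of all tested genes called higher, and they were Ccl3, Ccl4, Ccl5 and Ccl19. Ccl5, a chemokine that draws T cells and monocytes, had the largest change of them, at 2.84 ± 0.36 log2 units (edgeR adjusted p = 1.81e-05). Of 19 tested cytokine and NF-kappaB genes, 13 were called higher than sham at 14 dpi and 0 lower, where 21.4% of all tested genes were called higher. The list had a median log2 fold change of 0.93 where that of all tested genes was 0.08. Among them were Tnf (1.0), Il1b (1.88), Tlr2 (1.47) and Icam1 (1.19). In 60 against 14 dpi, 12 of the 19 were called lower and 0 higher, with a median of -0.96, where 22.3% of all tested genes were called lower. Ccrl2 had the same 2 calls. At 2 dpi 4 of the 19 were higher than sham, Il1b, Il1rn, Tlr2 and Tnf, where 7.24% of all tested genes were, and 2 were lower. With TMM factors 6 were higher and 0 lower at this time, and with the size factors of DESeq2 7 and 0.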

How the data were processed

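RNA of 15 samples of sorted microglia was counted on an nCounter immune panel of 547 endogenous genes, 14 housekeeping genes, 6 positive and 8 negative controls. The authors deposited raw probe counts with no normalization, handled here as estimated counts, all of them whole numbers. The second deposited table holds normalized signal on a linear scale, by the methods from NanoStringNorm. Its 8205 values equal the count less the negative-control mean, not below 0, times a factor that sets the housekeeping sum to 9027.27, to within 0.001. The hybridized probes' sequences and the genome build were not given in the sources used here.

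Counts were scaled by a positive-control factor times a housekeeping factor (combined 0.511 to 1.87). Genes above the mean plus 2 SD of the negative controls in at least 3 samples (359, with 188 left out) were tested in edgeR 4.0.16 (R 4.3.3) by the quasi-likelihood F test with robust estimation, in 1 fit of all 15 samples with a mean per group. Adjusted p-values are Benjamini-Hochberg over all tested genes, at 0.05 in each of 6 comparisons. Alternatives were other scalings, DESeq2 1.42.0, limma 3.58.1 on the authors' values, background settings, fits of fewer groups and leaving out each sample. The groups come from the labels, and replicates were numbered in order of deposit.

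The 4 genes and all lists were chosen with earlier results of these data known. Genes named in the text are the 4 receptors, list members past the threshold in a comparison, the 3 tested genes nearest to each receptor and markers by list. For nearness, log2(normalized count + 1) was used. Cd3eap, 1 of the T cell list, is not a T cell gene. Some of the listed genes are not reported here by name.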

Additional observations from a re-analysis of the deposited data

Results flagged for a closer look

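Ptafr at 14 dpi had 1 sample far from the 3 others. Replicate 1 was at 233 normalized counts, where the others were at 327 to 341, and its gap made up 0.872 of the range of the group. Of 12 groups examined in this way it was the only one to pass the limit, which chance passes in about 1 of 20 groups.

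Of 12 differences between times, each the difference of 2 changes against the same sham samples, 4 were called by edgeR. Ccrl2 changed by 1.06 log2 units more at 14 dpi than at 2 dpi, with 4 of 4 samples at 14 dpi above those at 2 dpi, and its change at 60 dpi was lower than that at 14 dpi by 1.42 (difference -1.42). Ptafr changed by 1.10 log2 units more at 14 dpi than at 2 dpi and by 0.88 more at 60 dpi than at 2 dpi, with no overlap of samples in either. Of all tested genes 39.6% were called higher at 14 against 2 dpi and 46.2% at 60 against 2 dpi. With no overlap of samples there were 35.7% and 49.9%. At 60 against 14 dpi 22.3% were called lower. The 60 dpi samples were counted in a run of their own, so for the 2 differences that include 60 dpi time and run cannot be told apart.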

How the results depend on the processing

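Of 276 values of the 4 genes under settings that left no single sample out, 226 kept their direction and their side of the threshold, 22 lost the call, 13 gained one and 15 turned direction, mostly differences near 0. With positive-control factors alone, which leave the amount of RNA uncorrected, every call on the 4 genes except that of Ccrl2 at 60 against 14 dpi was lost. The values were 1.02 and 0.69 for Ccrl2 at 14 dpi against sham and against 2 dpi, -0.40 for Cmklr1 at 2 dpi, -0.43 and 0.30 for Ptafr at 2 and 14 dpi against sham, 0.73 and 0.45 for Ptafr at 14 and 60 against 2 dpi, and -0.70, -0.86 and -1.07 for Gpr183 at 2, 14 and 60 dpi. Turned were Cmklr1 at 60 against 2 dpi (-0.12) and Gpr183 at 14 against 2, 60 against 14 and 60 against 2 dpi (-0.17, -0.20 and -0.37).

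With TMM factors and with the size factors of DESeq2, the median change of all tested genes at 2 dpi was -0.04 and -0.02, in place of -0.30. Against sham, Ccrl2 at 2 dpi was then called (0.47 and 0.50), Cmklr1 at 2 dpi was not (-0.27 and -0.25) and was called at 14 dpi (-0.34 and -0.35) and, with DESeq2, at 60 dpi (-0.37). Ptafr was not called at 2 dpi (-0.27 and -0.25) nor, with DESeq2, at 14 dpi (0.39). Ccrl2 at 60 against 2 dpi was called (-0.76 and -0.82). Turned were Cmklr1 at 14 against 2 dpi (-0.08 and -0.10), at 60 against 2 dpi (-0.07 and -0.12) and, with TMM, at 60 against 14 dpi (0.01), and Gpr183 at 14 against 2 dpi (-0.34 and -0.36) and at 60 against 2 dpi (-0.30 and -0.35).

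Ptafr at 2 dpi against sham also lost its call with housekeeping factors alone (-0.51) and, at -0.52, with the negative-control mean subtracted, the same without the control NEG_B (chosen after seeing the data), no background filter, only the 2 groups compared and without the 60 dpi samples. Cmklr1 at 14 against 2 dpi was called, at 0.36, with DESeq2 at the main factors, the stricter filter, only the 2 groups and without the 60 dpi samples. On the authors' values with limma, Cmklr1 was called at 14 and 60 against 2 dpi (0.45 and 0.48) and turned at 60 against 14 dpi (0.03), and Ptafr at 14 dpi was not called (0.60). Gpr183 at 60 against 14 dpi turned with the negative-control mean subtracted (-0.01). The mean of Cmklr1 at 2 dpi was 61.8% of sham in the authors' values and 69.7% here. Other causes of these changes were not tested.

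Leaving out each of the 15 samples in turn gave 360 values, of which 324 kept direction and call. The ranges were -0.46 to 0.05 for Ccrl2 at 60 dpi, -0.68 to -0.17 for Ccrl2 at 60 against 2 dpi, 0.32 to 0.42, -0.12 to 0.05 and 0.24 to 0.42 for Cmklr1 at 14 against 2, 60 against 14 and 60 against 2 dpi, -0.66 to -0.37 and 0.47 to 0.70 for Ptafr at 2 and 14 dpi, -0.95 to -0.60 for Gpr183 at 60 dpi, and -0.07 to 0.20, -0.18 to 0.17 and -0.10 to 0.24 for Gpr183 at 14 against 2, 60 against 14 and 60 against 2 dpi. Ptafr at 14 dpi lost its call without replicates 1 or 4 of sham (adjusted p = 0.105 and 0.0995 in edgeR), replicate 3 of 2 dpi (0.0512) or replicates 2, 3 or 4 of 14 dpi (0.106, 0.0882 and 0.0844). At 2 dpi it kept its call without sham replicates 1 or 4, 2 dpi replicate 2 or 14 dpi replicate 1.

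Over all tested genes, 26 were called higher and 101 lower at 2 dpi, 77 and 15 at 14 dpi, 91 and 40 at 60 dpi, 142 and 10 at 14 against 2 dpi, 78 and 80 at 60 against 14 dpi, and 166 and 36 at 60 against 2 dpi. With TMM factors they were 47 and 43, 68 and 65, 76 and 67, 44 and 23, 90 and 80, and 83 and 70. With DESeq2 and its factors they were 57 and 39, 71 and 69, 81 and 77, 44 and 28, 88 and 89, and 72 and 77. With positive-control factors alone they were 20 and 1, 20 and 0, 48 and 18, 7 and 10, 36 and 44, and 29 and 27. Without replicate 3 of 2 dpi, 80 genes in all were called at 2 dpi. With the negative-control mean subtracted, 77 and 59 were called at 60 dpi, 61 and 96 at 60 against 14 dpi and 118 and 57 at 60 against 2 dpi. On the authors' values with limma, 69 and 54 were called at 60 dpi. No paired analysis was possible because the labels give the samples no replicate numbers that groups share. With 3 or 4 samples a group, the smaller differences have wide intervals.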
